A study of Mus musculus with 20 samples.

Results

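Genes for proteins of the postsynaptic density and its calmodulin signaling were described across the groups of a bulk RNA sequencing (RNA-Seq) study of stroke in aged mice. The 9 genes were chosen by name from 46078 listed genes, by a rule that uses no measured value but was written with earlier results of these data known: Nrgn, Camk2a, Camk2b, Camk4, Dlg4, Shank1, Shank2, Shank3, and Dlgap1. All 9 passed the filter on low counts in every comparison. The mice were wild-type C57BL/6J males aged 18 months, and every group had a DH stroke, in which the distal middle cerebral artery is occluded and a period of hypoxia follows, leaving an infarct centered on the somatosensory cortex. They received PBS (the vehicle) or 4 g/kg of HPBCD, a cyclodextrin that takes up lipids, under the skin 3 times per week for 6 weeks from week 1 after stroke, and tissue was taken at week 7. Libraries fell into 4 groups of 5: the peri-infarct region and the matching contralateral region of vehicle mice, and the same regions of HPBCD mice. No group without stroke was analysed here. The region was dissected by eye next to the removed infarct, so each library is a mixture of the cell types in that piece.

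The postsynaptic density is a protein mat under the membrane of excitatory synapses, in which scaffold proteins hold glutamate receptors beside the enzymes they activate. Calcium that enters through these receptors binds calmodulin, which then switches on calmodulin-dependent kinases, chief among them CaMKII, and their activity is needed for lasting strengthening of the synapse in cortex and hippocampus. Neurogranin, the product of Nrgn, binds calmodulin while calcium is low and releases it when calcium rises. Camk2a and Camk2b encode the α and β subunits of CaMKII, and Camk4 encodes a kinase that carries the calcium signal to the nucleus. Dlg4 encodes the membrane scaffold PSD-95, Dlgap1 encodes the linker protein between PSD-95 and the Shank proteins, and Shank1, Shank2, and Shank3 encode the deepest scaffold layer, tied to actin.

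RefSeq promoter windows (GRCm38.p6, 250 bases before to 50 after a start) matched 5 of the 9 genes, with 8 windows. The stretch of the window before the first annotated exon is shown for 3 genes that span the range of change below: Nrgn, with the largest difference between regions, Dlgap1, with the next largest in HPBCD mice, and Shank3, with the smallest in HPBCD mice. All runs are on the gene's own strand, 5′ to 3′, and capitals mark the GC box (GGGCGG on either strand).
Nrgn, chr9:37552905-37552995: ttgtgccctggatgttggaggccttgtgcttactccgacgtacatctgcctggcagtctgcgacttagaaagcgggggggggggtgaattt
Dlgap1, chr17:69968823-69969072: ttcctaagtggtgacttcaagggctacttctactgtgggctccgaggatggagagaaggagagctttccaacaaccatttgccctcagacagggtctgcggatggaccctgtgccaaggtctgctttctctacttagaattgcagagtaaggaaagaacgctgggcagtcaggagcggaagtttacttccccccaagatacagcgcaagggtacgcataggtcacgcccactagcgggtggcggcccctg
Shank3, chr15:89499358-89499622: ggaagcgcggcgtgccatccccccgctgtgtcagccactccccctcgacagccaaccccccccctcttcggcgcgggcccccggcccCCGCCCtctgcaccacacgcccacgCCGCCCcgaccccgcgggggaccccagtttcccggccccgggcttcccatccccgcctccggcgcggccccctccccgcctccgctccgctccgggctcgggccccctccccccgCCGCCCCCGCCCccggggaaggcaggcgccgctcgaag
The Shank3 stretch was 81.9% G and C and held 4 GC boxes, while the Nrgn (57.1% G and C) and Dlgap1 (55.2%) stretches held none. Of stretches not printed, that of Camk2b was 78.4% G and C with 3 GC boxes, and those of Dlg4 were 62.8% and 48.9% with none. The stretches differ in length, and a link to the size of change was not tested. Over whole windows, Nrgn did hold a GC box, outside the printed run, as did Camk2b, Shank3, and 1 of the 3 windows of Dlg4, against 35.7% of 32851 windows of the same length in the table. No window of these genes held the cAMP response element TGACGTCA (1.79% of all windows) or the letters TATAAA (13.6%), and 1 window of Dlgap1 held the E-box CACGTG (7.15%).

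The libraries held 14445021 to 22171627 gene counts, and levels below are given in CPM, counts divided by a library total that was set with TMM factors over the 20 libraries and multiplied to a common size. The lowest level of any of the 9 genes in any library was 73.71 CPM (Shank2), so counting error was small beside the spread between mice. The tissue pieces differed in make-up. Summed over 10 neuron markers, levels were 6320 to 8810 CPM in vehicle peri-infarct and 9970 to 11600 CPM in vehicle contralateral libraries, and 3510 to 6290 against 11600 to 12500 CPM in HPBCD mice. The labels name no striatum, yet 9 striatal neuron markers summed to 384 to 2210 CPM in vehicle peri-infarct and 775 to 2230 CPM in HPBCD peri-infarct libraries, against 241 to 291 CPM in HPBCD contralateral ones. In vehicle contralateral libraries the same sum was 3930 CPM in replicate 1 and 234 to 321 CPM in the other 4, so that this library stood apart, and results are also given without it where it matters. In bulk tissue, fewer neurons in a piece and less RNA per neuron cannot be told apart.

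**Figure D1:**
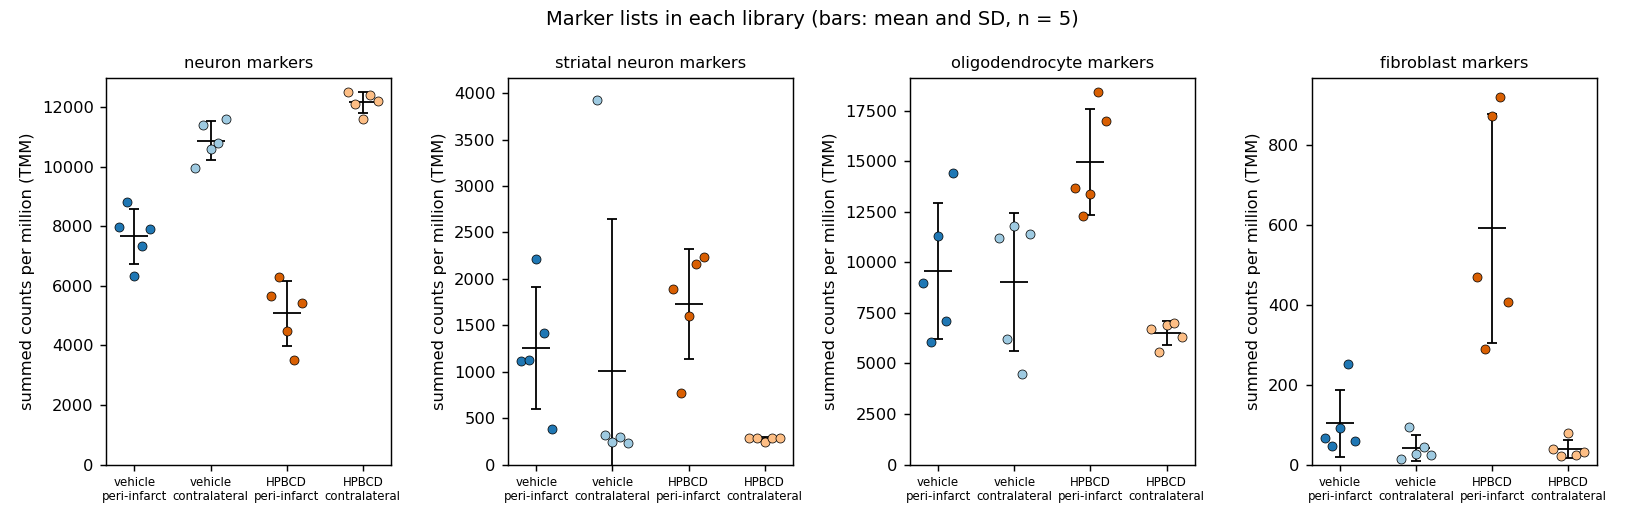
Summed CPM (TMM-scaled, vertical axes from 0) of 4 marker lists in each of the 20 libraries, with bars for mean and SD of 5. Neuron markers were lowest in HPBCD peri-infarct libraries (3510 to 6290 CPM), and 1 vehicle contralateral library had a striatal sum of 3930 CPM.

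In the GRCm38 build, with annotation from GENCODE M21, all 9 are protein-coding genes. Nrgn (ENSMUSG00000053310) lies on the minus strand at chr9:37544492-37552904 and Camk2b (ENSMUSG00000057897) on the minus strand at chr11:5969644-6066362. The other 7 are on the plus strand, Camk2a (ENSMUSG00000024617) at chr18:60925618-60988152, Camk4 (ENSMUSG00000038128) at chr18:32934931-33191228, Dlg4 (ENSMUSG00000020886) at chr11:70016942-70047522, Shank1 (ENSMUSG00000038738) at chr7:44310253-44360572, Shank2 (ENSMUSG00000037541) at chr7:144001928-144424494, Shank3 (ENSMUSG00000022623) at chr15:89499623-89560261, and Dlgap1 (ENSMUSG00000003279) at chr17:69969073-70821413. Exons of 4 of them overlap an exon of a gene on the opposite strand, by 72 bp for Camk4, 339 bp for Shank1, 271 bp for Shank3, and 92 bp for Dlgap1. The counting's strand option is not given in the sources used here, so how reads in these overlaps were counted is not known.

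Divided by exon length, the 9 genes kept a steep order of level. In vehicle contralateral tissue Nrgn stood at 1726 ± 186 CPM per kb (SD, n = 5) and Camk2a at 414.6 ± 73.9, both clear of the genes below them. Camk2b (105.6 ± 13.4 CPM per kb), Camk4 (79.73 ± 20.1) and Dlg4 (72.65 ± 4.65) followed, and neighbors among these overlapped between libraries. Dlgap1 (40.46 ± 7.15 CPM per kb) and Shank1 (39.11 ± 6.13) did not differ beyond their spread, whereas Shank3 (23 ± 2.97) and then Shank2 (14.54 ± 1.86) lay below them without overlap. In HPBCD peri-infarct tissue the distance between Nrgn and Camk2a was smaller, with Nrgn at 448 to 684.2 CPM per kb and Camk2a at 223.9 to 447.2. The exon length counts every annotated isoform, so the level per kb of genes with many isoforms, such as Dlgap1 and Dlg4, is a low estimate.

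**Figure D2:**
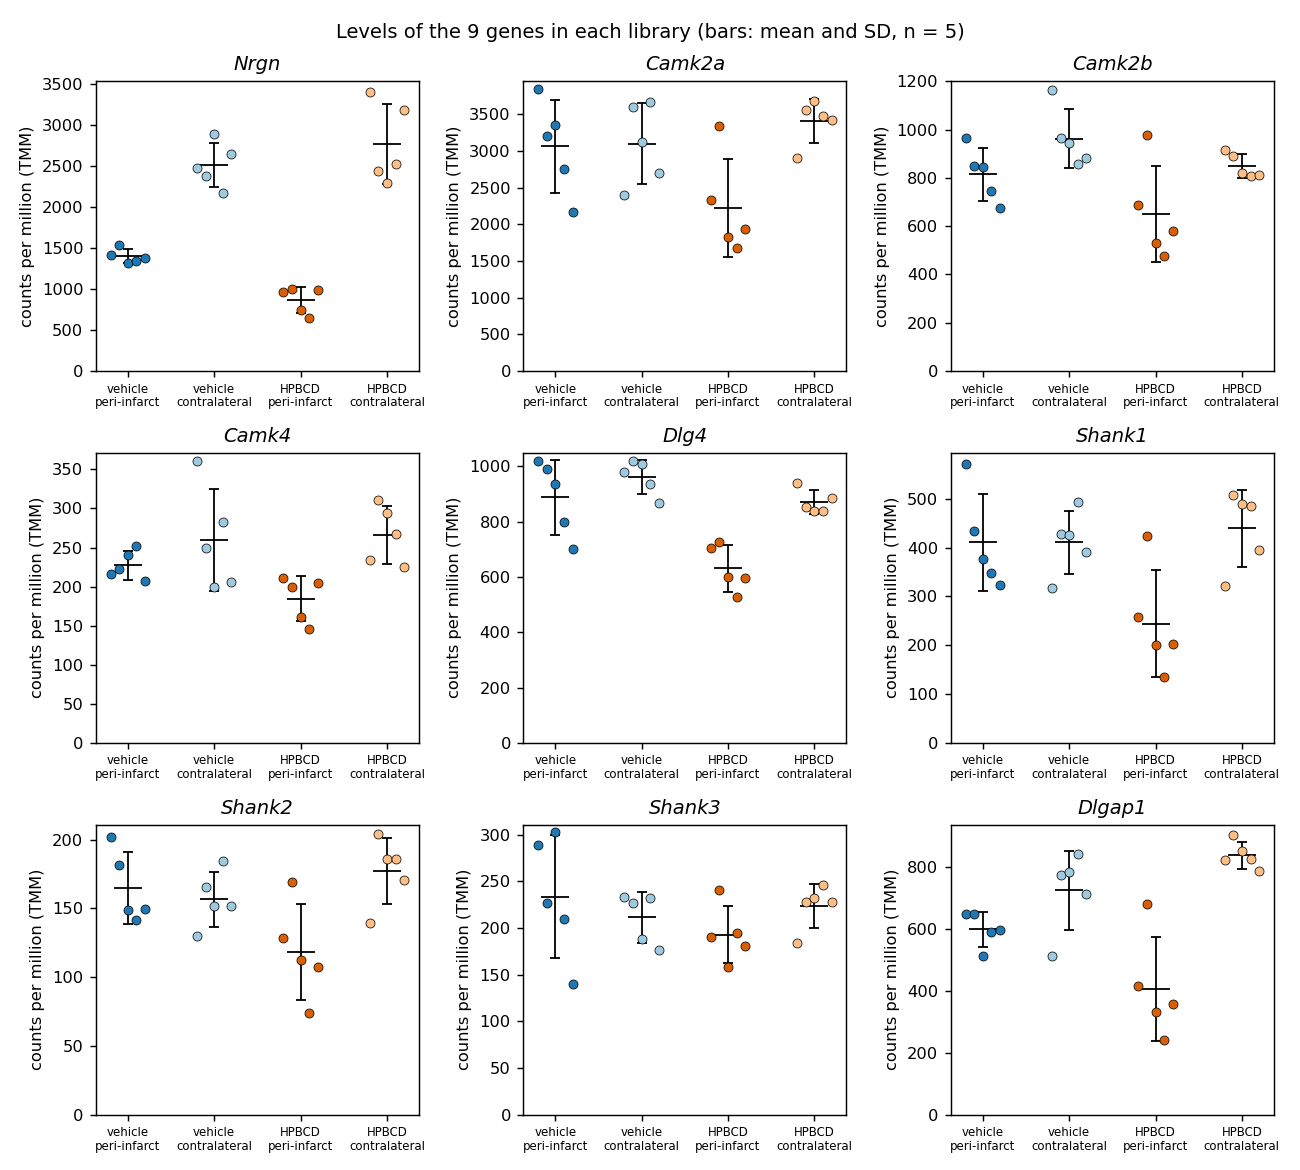
CPM (TMM-scaled, vertical axes from 0) of the 9 genes in each of the 20 libraries, by group, with bars for mean and SD of 5. Nrgn was lower in all peri-infarct libraries (651 to 1536 CPM) than in all contralateral libraries (2170 to 3397 CPM), and the other 8 genes overlapped between the vehicle regions.

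The comparison of regions asks how tissue beside the infarct differs from its counterpart 7 weeks after stroke. In vehicle mice, Nrgn alone of the 9 genes was called (edgeR quasi-likelihood test, Benjamini-Hochberg adjusted p under 0.05), lower in the peri-infarct region, where 9.7% of 15801 genes tested were called lower. Its groups did not overlap, as was so of 7.42% of the genes tested in that direction. Nrgn ranked 6 by p in that comparison, where 1.57% of the genes tested had a log2 value as low or lower. Between the regions of HPBCD mice it ranked 750 by p, with 1.24% as low or lower. In HPBCD mice, 7 of the 9 genes were called lower in the peri-infarct region, against 24.3% of 16047 genes, and 4 of them (Nrgn, Camk4, Dlg4, and Dlgap1) did not overlap, against 20.5%. With counts scaled to neuron markers instead of TMM factors, Nrgn stayed lower in both treatments, while 6 of the others were called higher in HPBCD mice, where that scaling called 84.8% of all genes higher. The median log2 change of the 9 genes was -0.10 in vehicle mice, where that of all genes was 0.015, and -0.53 in HPBCD mice, where that of all genes was 0.032. Leaving out 1 library gave vehicle medians from -0.16 (without peri-infarct replicate 1) to -0.03 (without peri-infarct replicate 5).

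The comparison of treatments asks how HPBCD changed each region. Its directions, like the names vehicle mice and HPBCD mice in the region comparisons and the sign of the interaction, rest on the deposited labels, which no altered gene in these mice can check. If the treatment labels were exchanged, every treatment and interaction value would change sign. In peri-infarct tissue all 9 genes had values below 0, and 2, Nrgn and Dlg4, were called lower in libraries labelled HPBCD, against 9% of 16224 genes. The groups of Nrgn did not overlap, as for 6.47% of genes. The median log2 change was -0.46, against 0.014 for all genes. In contralateral tissue none of the 9 was called, nor was any of 15469 genes (0%). There, 1224 genes, among them Camk2b and Dlg4, had an unadjusted p under 0.05, DESeq2 called 53 genes but none of the 9, and limma-voom called none. The region by treatment interaction, which tests whether the region difference differed between treatments, was called for Nrgn, on the lower side, against 4.38% of 16758 genes. All 9 interaction values were below 0, with a median of -0.58 on the log2 scale against 0.01 for all genes. These counts rested on few libraries. Without HPBCD peri-infarct replicate 2, 7 members were called lower between treatments (16.3% of all genes then) and 5 in the interaction (8.26%), where 2 were called without vehicle peri-infarct replicate 3 (7.45%), and without vehicle replicate 1 or 2 or HPBCD replicate 3, 4, or 5 of the peri-infarct libraries only Nrgn was called between treatments (1.41% to 4.78% of all genes).

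**Figure D3:**
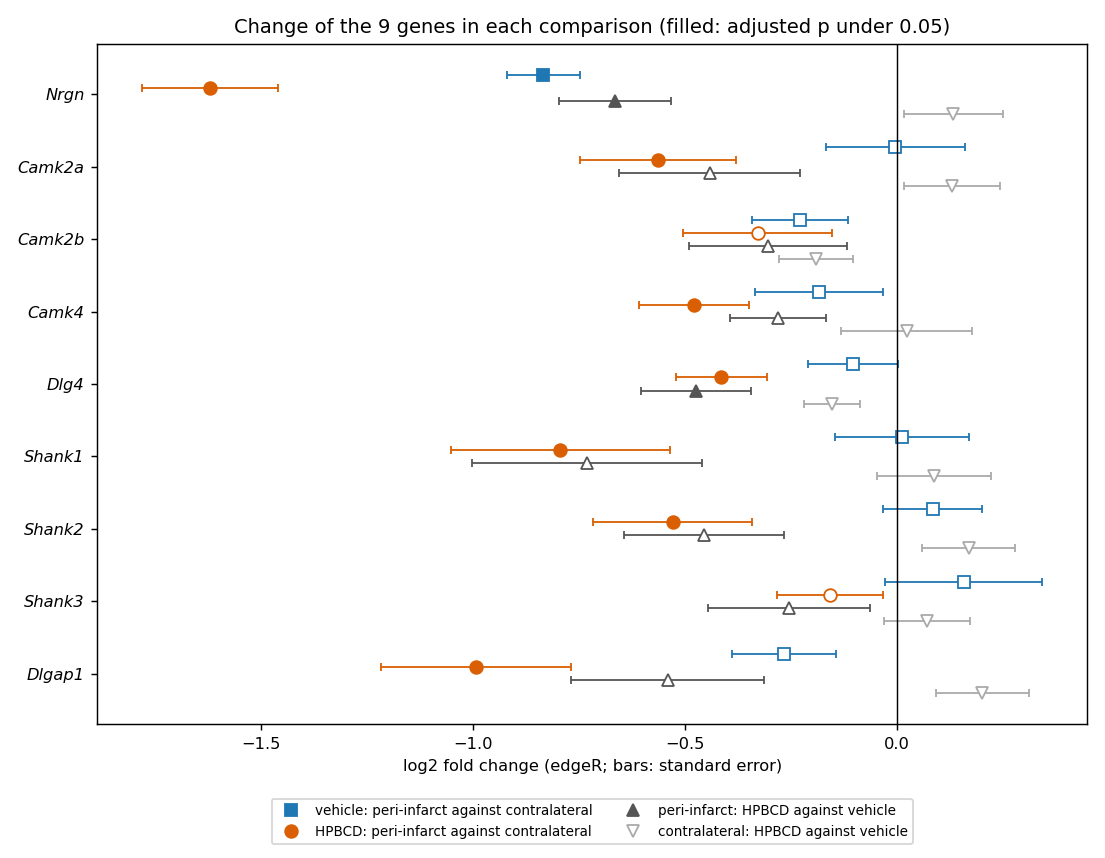
Log2 fold changes (edgeR with TMM scaling, horizontal axis) of the 9 genes in 4 comparisons, with bars for standard errors and filled symbols for adjusted p under 0.05. Values for the regions of HPBCD mice reach from -0.16 (Shank3) to -1.62 (Nrgn), while vehicle mice have a filled symbol for Nrgn only. Under scaling to neuron markers, which called 84.8% of all genes higher, 7 of the 9 HPBCD values turn positive.

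Nrgn, the calmodulin-binding gene, held 1414, 1536, 1320, 1335, and 1381 CPM in the vehicle peri-infarct libraries and 2469, 2378, 2886, 2170, and 2640 CPM in the contralateral libraries of the same mice. The highest peri-infarct library was thus below the lowest contralateral one. The log2 fold change was -0.83 (SE 0.0866; adjusted p = 0.00115, edgeR), so that the level fell by 43.9%.

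In HPBCD mice Nrgn held 965.4, 994.2, 741.8, 651, and 986.6 CPM in peri-infarct and 3397, 2441, 2295, 2527, and 3179 CPM in contralateral libraries. These groups lay further apart than those of vehicle mice. The log2 fold change was -1.62 (SE 0.16; adjusted p = 4.32e-06, edgeR), so that the level fell by 67.5%.

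All 5 HPBCD peri-infarct values of Nrgn were also below all 5 vehicle peri-infarct values, a log2 fold change of -0.67 (SE 0.132; adjusted p = 0.0136, edgeR). In contralateral tissue the log2 difference between treatments was 0.13 (SE 0.116; adjusted p = 0.807, edgeR), with overlapping groups. The interaction was -0.80 on the log2 scale (SE 0.179; adjusted p = 0.0177, edgeR). The region call held without any single library in either treatment and under every other setting tried, neuron marker scaling included.

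Camk2a, the α subunit of CaMKII, did not share the vehicle pattern of Nrgn. Vehicle peri-infarct libraries held 3837, 3198, 3349, 2755, and 2165 CPM and contralateral libraries 2400, 3592, 3124, 3667, and 2694 CPM. The ranges coincided, and the log2 fold change was -0.00384 (SE 0.164; adjusted p = 0.99, edgeR). In HPBCD mice, peri-infarct libraries held 2327, 3339, 1824, 1671, and 1935 CPM and contralateral libraries 2904, 3559, 3685, 3474, and 3422 CPM. Replicate 2 was the one peri-infarct library within the contralateral range, and the gene was lower by edgeR with a log2 fold change of -0.56 (SE 0.184; adjusted p = 0.0199).

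Camk2b, the β subunit, was called in neither treatment. Its peri-infarct levels in HPBCD mice were 689.6, 980.1, 529.6, 476.5, and 578.8 CPM, against 915, 890.4, 821.8, 807.7, and 813.5 CPM in contralateral tissue. Replicate 2 was above every contralateral library, and the other 4 were below all of them. The log2 fold change was -0.33 (SE 0.176; adjusted p = 0.132, edgeR), and it was called with animal as a replicate block (-0.38; adjusted p = 0.0487) and without that library (-0.54; adjusted p = 0.000714). In vehicle mice the log2 value was -0.23 (SE 0.114; adjusted p = 0.179, edgeR), with 675.6 to 963.9 CPM in peri-infarct and 855.9 to 1166 CPM in contralateral libraries, and without contralateral replicate 1 it was -0.14 (adjusted p = 0.37, edgeR).

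Camk4, the nuclear calmodulin kinase, was lower in the peri-infarct region of HPBCD mice. Peri-infarct libraries held 211.5, 199.2, 161.4, 145.8, and 204.5 CPM and contralateral libraries 233.5, 310.5, 293.9, 267.1, and 225.3 CPM. The groups did not overlap, and the log2 fold change was -0.48 (SE 0.13; adjusted p = 0.00738, edgeR). In vehicle mice the value was -0.18 (SE 0.15; adjusted p = 0.417, edgeR), and replicate 1 of the contralateral libraries, the one with the high striatal sum, had the highest level of all 20, 360.5 CPM. Without that library the value was -0.02 (adjusted p = 0.92, edgeR).

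Among scaffolds, Dlg4 held 705.3, 726.7, 599.6, 526.9, and 594.9 CPM in HPBCD peri-infarct and 938.6, 852, 839.9, 837.6, and 886.2 CPM in HPBCD contralateral libraries. No library of the first group reached the second, and the log2 fold change was -0.41 (SE 0.107; adjusted p = 0.00538, edgeR). Vehicle peri-infarct libraries, at 1020, 990.5, 934.7, 797.4, and 700.7 CPM, overlapped vehicle contralateral libraries at 868.7 to 1020 CPM (log2 fold change -0.10, SE 0.107). Between treatments, peri-infarct Dlg4 was lower in libraries labelled HPBCD, with a log2 fold change of -0.47 (SE 0.13; adjusted p = 0.0296, edgeR), and vehicle replicate 5 fell within the HPBCD range. That call was lost without any 1 of 5 libraries, vehicle replicates 1 and 2 and HPBCD replicates 3, 4, and 5 (adjusted p 0.0618 to 0.0769, edgeR).

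Dlgap1, the linker between PSD-95 and Shank proteins, had the largest change after Nrgn in HPBCD mice. Peri-infarct libraries held 415.8, 680.9, 331.9, 239.2, and 356.1 CPM, and contralateral libraries held 823.1, 902.4, 850.4, 823.3, and 786.1 CPM. The groups did not overlap, although replicate 2 was close, and the log2 fold change was -0.99 (SE 0.224; adjusted p = 0.00233, edgeR), so that the level fell by 49.7%. In vehicle mice the peri-infarct range of 510.4 to 648.3 CPM overlapped the contralateral range through replicate 1 alone, at 510.7 CPM, with the others at 710.7 to 842.4 CPM. The vehicle log2 value was -0.27 (SE 0.123; adjusted p = 0.147, edgeR), and without that library, which stood apart by its striatal sum, Dlgap1 was called (-0.35; adjusted p = 0.0197). The interaction was -0.75 (SE 0.261; adjusted p = 0.0705, edgeR), and it was called with animal as a replicate block (-0.85; adjusted p = 0.0434).

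The 3 Shank genes, which encode the deep scaffold layer, were not called between the vehicle regions, with log2 values of 0.01, 0.08, and 0.16 for Shank1, Shank2, and Shank3 (SE 0.158, 0.117, and 0.186). Without contralateral replicate 1 they were -0.06, 0.04, and 0.21. In HPBCD mice they differed in size. Shank1 held 257.6, 424.6, 200, 135.3, and 201.6 CPM in peri-infarct and 322.1, 507.6, 488.6, 485.2, and 395.4 CPM in contralateral libraries. Replicate 2 overlapped, and the log2 fold change was -0.79 (SE 0.259; adjusted p = 0.0197, edgeR). Shank2 held 73.71 to 169.1 CPM in peri-infarct and 139.2 to 204.3 CPM in contralateral libraries, a log2 fold change of -0.53 (SE 0.187; adjusted p = 0.0289, edgeR) that was not called without contralateral replicate 2, 3, or 4 (adjusted p 0.0542 to 0.0659), of which replicate 4 stood apart in its ambiguous reads (8.03%, against at most 4.16% in the other 19 libraries). Shank3, at 190.1, 240.9, 158.1, 194.7, and 181.2 CPM against 184.2, 228.3, 231.7, 246.3, and 227.6 CPM, was not called (-0.16, SE 0.125; adjusted p = 0.303, edgeR), but it was called lower with limma-voom (-0.29; adjusted p = 0.0157) and without peri-infarct replicate 2 (-0.26; adjusted p = 0.0413, edgeR). Its groups overlapped through peri-infarct replicate 2 and contralateral replicate 1.

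Counts of the 3 Shank genes were each divided by exon length and given as shares of their total, which need no scaling between libraries. Shank3 made up 39.4% ± 7.54 (SD, n = 5) in HPBCD peri-infarct tissue against 29.6% ± 2.03 in contralateral tissue. The lowest peri-infarct share, 31.9%, was above the highest contralateral share, 31.7%. Shank1 made up 40.7% ± 6.37 against 50.4% ± 2.12, with overlap, and Shank2 19.9% in each region. In vehicle mice the Shank3 shares overlapped (31.6% ± 5.36 and 30.2% ± 4.37). Between the CaMKII subunits, the ratio of Camk2a to Camk2b counts was 3.41 ± 0.0658 beside the infarct and 4.03 ± 0.512 contralaterally in HPBCD mice, with overlap. In vehicle mice the order was the reverse, 3.72 ± 0.317 beside the infarct and 3.28 ± 0.827 contralaterally, also with overlap. The ratio of Nrgn to Dlg4 counts was 1.6 ± 0.237 in vehicle peri-infarct against 2.61 ± 0.326 in vehicle contralateral tissue, and 1.38 ± 0.172 against 3.16 ± 0.416 in HPBCD mice, without overlap in either treatment. These shares and ratios are descriptions with no test, and how often those of other genes lie apart between regions was not examined.

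The table names give the 2 regions of a mouse the same identifier, which was read as the animal, and each mouse can then be followed on its own. For Nrgn the ratio of peri-infarct to contralateral CPM was 0.573, 0.646, 0.457, 0.615, and 0.523 in vehicle mice and 0.284, 0.407, 0.323, 0.258, and 0.31 in HPBCD mice. All 10 mice were below 1, and the highest HPBCD ratio was below the lowest vehicle ratio, as for 4.94% of all genes. For Dlgap1 the ratio was below 1 in 4 of 5 vehicle mice (0.652 to 1.27) and in 5 of 5 HPBCD mice (0.29 to 0.755). For Camk2b it was below 1 in 5 of 5 vehicle mice, within 0.765 to 0.891, and in 4 of 5 HPBCD mice, within 0.59 to 1.1. Camk2a, Camk4, Dlg4, Shank1, and Shank2 were each below 1 in 5 of 5 HPBCD mice and in 3 or 4 of 5 vehicle mice. Of all genes, 29.7% were below 1 in 5 of 5 HPBCD mice and 17.5% in 5 of 5 vehicle mice. Shank3 was below 1 in 2 of 5 vehicle mice (0.792 to 1.61) and 3 of 5 HPBCD mice (0.682 to 1.06).

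**Figure D4:**
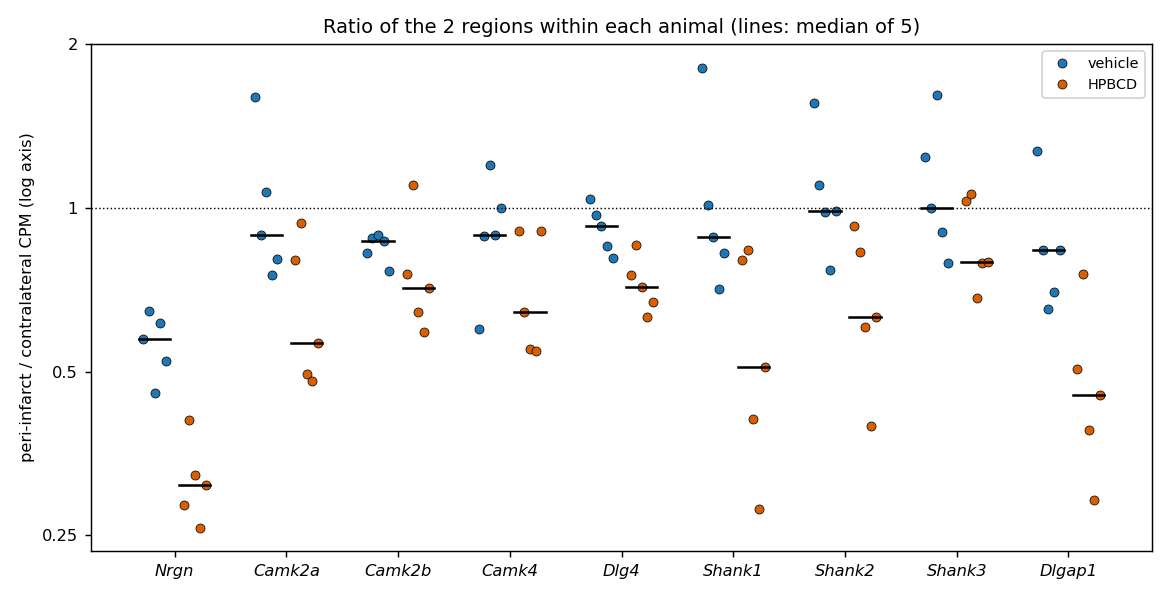
Ratio of peri-infarct to contralateral CPM (TMM-scaled, log axis, dotted line at 1) for each gene in each of 5 vehicle and 5 HPBCD mice, with lines for medians. Nrgn ratios lie at 0.457 to 0.646 in vehicle and 0.258 to 0.407 in HPBCD mice, and Shank3 ratios lie on either side of 1 in both.

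Markers of other cells moved with these results. In HPBCD mice, 9 of 10 neuron markers, 5 of 6 excitatory cortical neuron markers, and 5 of 6 inhibitory neuron markers were called lower in the peri-infarct region, and 9 of 9 striatal, 4 of 6 astrocyte, 7 of 7 microglia and macrophage, 6 of 6 oligodendrocyte, 5 of 5 fibroblast, and 4 of 4 ependymal markers were called higher, where 24.3% of all genes were lower and 30.3% higher. Oligodendrocyte markers summed to 12300 to 18400 CPM in HPBCD peri-infarct and 5550 to 7000 CPM in HPBCD contralateral libraries, astrocyte markers to 5240 to 8260 and 2360 to 2720, microglia and macrophage markers to 541 to 931 and 204 to 235, fibroblast markers to 289 to 922 and 22.3 to 79.4, and ependymal markers to 77.7 to 150 and 6.7 to 11.7, with 2 of the 4 ependymal genes at 0 in some contralateral library. In vehicle mice, 3 of 10 neuron markers, none of 6 excitatory and 2 of 6 inhibitory neuron markers were called lower, and 4 of 6 astrocyte, 7 of 7 microglia and macrophage, 1 of 5 fibroblast (Dcn), and 1 of 3 tested ependymal markers (Foxj1) were called higher (10.5% of all genes). Of 5 thalamic markers, 2 were higher and 1 lower in each treatment. Between treatments in peri-infarct tissue, 9 of 10 neuron markers (list median -0.60 on the log2 scale) and 2 of 6 markers each of excitatory and inhibitory neurons were called lower in libraries labelled HPBCD, and 5 of 5 fibroblast (2.61) and 3 of 4 ependymal markers (1.6), the oligodendrocyte gene Mobp, the astrocyte gene Gja1, and the thalamic gene Tcf7l2 were called higher (12.4% of all genes), with the thalamic gene Slc17a6 lower. Summed levels were 289 to 922 CPM (fibroblast) and 77.7 to 150 CPM (ependymal) in those libraries and 45.4 to 252 and 21.4 to 52.6 CPM in vehicle peri-infarct ones. In the interaction 6 of 10 neuron, 2 of 6 excitatory, 1 of 6 inhibitory, and 1 of 5 thalamic neuron markers were lower, and 4 of 5 fibroblast, 4 of 4 ependymal, 2 of 6 oligodendrocyte, and 1 of 6 astrocyte markers were higher (5.03% of all genes). HPBCD peri-infarct replicate 2, which had the highest level of 8 of the 9 genes in its group, also had the highest neuron sum (6290 CPM) and the lowest striatal (775 CPM), oligodendrocyte (12300 CPM), and fibroblast (289 CPM) sums of that group. Their part in the results was not tested.

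When library sizes were set by the 10 neuron markers, the question became whether the 9 genes differed relative to other neuronal RNA. On that scale the median of all genes in HPBCD mice moved from 0.032 to 1, and in vehicle mice from 0.015 to 0.32, so values are read beside that shift. Nrgn remained lower in the peri-infarct region, with log2 fold changes of -0.53 in vehicle mice and -0.66 in HPBCD mice (adjusted p no higher than 0.00644 and 0.000286 under any setting, edgeR, limma-voom, and DESeq2). In the regions of HPBCD mice, 6 genes were called higher, Camk2a (0.38), Camk2b (0.61), Camk4 (0.49), Dlg4 (0.56), Shank2 (0.41), and Shank3 (0.83), all still below the median of all genes, of which 84.8% were called higher. Shank1 (0.11) and Dlgap1 (-0.08) were not called. In vehicle mice Shank2 was called higher (0.39; adjusted p = 0.0138, edgeR), as were 38.9% of all genes. Neither Nrgn nor Dlg4 was called between treatments in peri-infarct tissue on this scale (-0.07 and 0.13), and the interaction of Nrgn was -0.13 (adjusted p = 0.461, edgeR). Between treatments the median of all genes was then 0.65, with 11033 of 16224 genes called, 28 of them lower. In the interaction the median was 0.71, with 10591 of 16758 genes called, 30 of them lower.

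**Figure D5:**
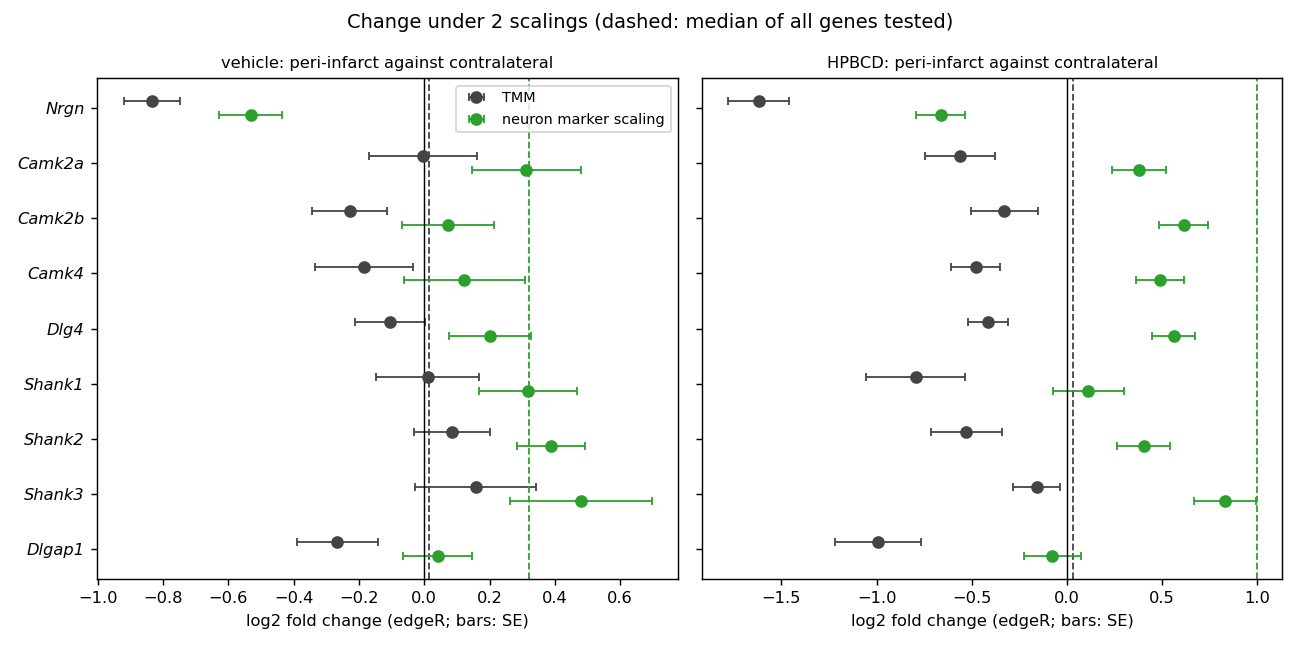
Log2 fold changes between the regions (peri-infarct over contralateral, horizontal axis, bars for standard errors) of the 9 genes in vehicle and HPBCD mice, with TMM scaling and with neuron marker scaling. Dashed lines mark the median of all genes tested, which neuron marker scaling moves to 0.32 and 1, and Nrgn lies below 0 under both scalings while the others, Dlgap1 in HPBCD mice apart, lie above 0 under neuron marker scaling.

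Per library, the log2 CPM of Nrgn minus the mean log2 CPM of the neuron markers was 1.34 to 1.58 in vehicle peri-infarct and 1.71 to 2.18 in vehicle contralateral tissue. In HPBCD mice it was 1.25 to 1.48 against 1.8 to 2.27. Neither treatment had an overlap between regions, as was so on the lower side of 0.842% of all genes in vehicle mice and 1.1% in HPBCD mice. Against 6 excitatory cortical neuron markers the same difference for Nrgn overlapped, at 2.65 to 3.77 and 3.21 to 3.99 in vehicle mice, and at 2.64 to 3.81 and 3.29 to 4 in HPBCD mice. On the higher side, 5 of the 9 genes (Camk2b, Camk4, Dlg4, Shank2, and Shank3) had no overlap between the HPBCD regions on the scale of the neuron markers, and 74.8% of all genes had none either. In vehicle mice this was so of none of the 9 and of 19.1% of all genes.

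The other genes of the pathway were taken from 3 wider lists, 63 genes in all. Of 26 genes for calmodulin and its kinases, phosphatase, and binders, 11 were called lower and none higher in the vehicle peri-infarct region (list median -0.28 on the log2 scale, with 9.7% of all genes called lower), while of 26 scaffold and spine genes 1 was higher and none lower (median 0.03), and of 11 adhesion and TARP genes 1 was lower (median -0.00441). In HPBCD mice, 17 calmodulin, 13 scaffold, and 6 adhesion and TARP genes were lower, where 24.3% of all genes were, with 1 calmodulin and 1 scaffold gene higher. Between treatments in peri-infarct tissue 18 of 63 were lower and none higher in libraries labelled HPBCD (9% of all genes lower), in contralateral tissue none was called by edgeR, DESeq2, or limma-voom, and in the interaction 12 were lower (4.38% of all genes). With neuron marker scaling 27 of the 63 were called in vehicle mice, 23 of them higher, and 50 in HPBCD mice, 44 of them higher, where 38.9% and 84.8% of all genes were called higher.

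The genes named from these lists were the 3 with the lowest adjusted p in each direction. In vehicle mice, Cabp1, a neuronal calcium-binding protein of the calmodulin family, fell from 439 ± 75.1 to 169 ± 49.2 CPM (log2 fold change -1.37; adjusted p = 0.00148, edgeR). Rcan2, a regulator of calcineurin, fell from 412 ± 56.3 to 237 ± 20.5 CPM (-0.79; adjusted p = 0.00146, edgeR). Ppp3r1, the regulatory subunit of calcineurin, which is the calmodulin-activated phosphatase, fell from 1010 ± 39.5 to 720 ± 42 CPM (-0.47; adjusted p = 0.00193, edgeR). The scaffold gene Homer3 rose in both treatments, by 1.01 on the log2 scale in vehicle mice (adjusted p = 0.0151) and by 2.07 in HPBCD mice (adjusted p = 3.57e-05, edgeR).

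In HPBCD mice, Cabp1 had the lowest adjusted p, at 98.3 ± 25 CPM against 560 ± 85.9 CPM (-2.46; adjusted p = 7.06e-07, edgeR). Camk2g, the γ subunit of CaMKII, was lower (138 ± 21.2 against 369 ± 31.7 CPM, -1.36), and the TARP gene Cacng2 (stargazin, an AMPA receptor auxiliary subunit) was lower (-1.29). Camkv, a kinase-like calmodulin binder, was higher (0.51; adjusted p = 0.0209, edgeR). Between treatments in peri-infarct tissue the named genes were Camk2n2, an inhibitor of CaMKII (57 ± 15.2 against 105 ± 21.7 CPM, -0.86), Cacng2 (-0.67), and the δ-catenin gene Ctnnd2 (-0.48), with adjusted p of 0.0153 to 0.0161 by edgeR. The interaction, by whose adjusted p they were picked, named Camk2n2 (-1.14), Camk2g (-0.77), and the CaM kinase kinase gene Camkk2 (-0.77).

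Over the 20 libraries, log2 CPM of the members followed one another to different degrees. Shank1 and Shank2 had the highest Pearson r of any pair, 0.973, and Shank1 with Camk2a reached 0.943. Nrgn followed Dlgap1 best (0.841), and Nrgn with Shank3 was the lowest pair (0.185). Among 11781 genes outside the 9 with a mean of at least 5 CPM, the closest in pattern to Nrgn were Mdh1 (0.982), Cend1 (0.981), and Ccdc92 (0.981). The closest gene was Fgf13 for Camk2a (0.961), Mast3 for Camk2b (0.944), Ppp1r9a for Camk4 (0.936), Grik5 for Dlg4 (0.959), Abcg4 for Shank2 (0.963), Ptpn3 for Dlgap1 (0.985), and Fbxl16 for Shank3, where r was lowest (0.843). The points share the same tissue pieces and groups, and r takes in their make-up.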

How the data were processed

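Polyadenylated RNA of 20 brain tissue pieces was sequenced. The authors made stranded mRNA libraries, demultiplexed reads with bcl2fastq 2.19, trimmed them with Trimmomatic 0.32, aligned them to GRCm38 with STAR 2.5.2b, and counted them per gene with htseq-count, and the deposited values are these raw counts with no normalization. The annotation release and strand option are not given in the sources used here. The last 5 lines of each table name no gene and were dropped before library sizes were summed. They hold 4.39% to 5.86% of reads without a feature and 3.94% to 4.16% ambiguous in 19 libraries, 9.5% and 8.03% in HPBCD contralateral replicate 4, which stood apart and also had the fewest gene counts, and 16.58% to 24.3% not uniquely aligned.

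Groups came from the sample titles, 5 mice each. The main test over all genes was edgeR's quasi-likelihood F test (edgeR 4.0.16, R 4.3.3) with TMM factors and filterByExpr, each comparison on its 10 libraries and the interaction on all 20, with Benjamini-Hochberg adjustment over all genes and a threshold of 0.05. An SE is the absolute log2 fold change over the root of F. CPM per kb uses the union of GENCODE M21 exons. The fit was tested on simulated data in which few genes changed. Between the regions of HPBCD mice 8764 of 16047 genes were called, so the simulation does not cover such a shift. The members, the wider lists, and the marker lists were chosen with earlier results of these data known. Named genes were all 9 members, the 3 of the wider lists with the lowest adjusted p in each direction, and the genes of most similar pattern by Pearson r of log2 CPM (prior count 2), of which the one for Shank1 is not reported here.

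Alternatives were DESeq2 1.42.0, voom with quality weights (limma 3.58.1), RLE, upper quartile, and neuron marker scaling (the geometric mean of 10 markers), no filter, at least 10 counts in every library, thinning to equal depth, all groups in 1 fit, a replicate block, and leaving out each library. The deposited names give both libraries of a mouse the same identifier, so the block pairs regions by animal. Deviations of the 10 pairs correlated with a mean r of 0.0878, over 0.1 in 4. Vehicle and HPBCD mice share only a number.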

Additional observations from a re-analysis of the deposited data

Results flagged for a closer look

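Of 36 groups of 5 libraries examined for the 9 genes, none held a value set apart from the rest, where chance alone marks about 1 in 20 groups. Of 76 groups examined in all, at the same chance rate, 5 held a value that stood apart, each a sum of a marker list. The striatal neuron sum was 3930 CPM in vehicle contralateral replicate 1, with the next library at 321 CPM, and 241 CPM in HPBCD contralateral replicate 3, with the next at 285 CPM. The fibroblast sum was 252 CPM in vehicle peri-infarct replicate 4 (next 92.3 CPM) and 79.4 CPM in HPBCD contralateral replicate 3 (next 38.1 CPM). The ependymal sum was 39.4 CPM in vehicle contralateral replicate 3 (next 13.2 CPM).

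The difference between regions itself differed between treatments for Nrgn, by -0.803 on the log2 scale (adjusted p = 0.0177, interaction test of edgeR, which called 4.38% of all genes lower), and with neuron marker scaling the value was -0.13 (adjusted p = 0.461). Camk2g (-0.774), Camk2n2 (-1.14), and Camkk2 (-0.773) were picked from the wider lists for the lowest adjusted p of that same test, so their values are a description. With neuron marker scaling they were -0.0857, -0.443, and -0.0847, none of them called by edgeR. That scaling moved the median of all genes in the interaction to 0.71, and 10591 of 16758 genes were called, 30 of them lower. The values of Nrgn and of these genes are read beside that shift.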

How the results depend on the processing

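Nrgn was called lower in the peri-infarct region of both treatments under all 10 other settings and without any single library, and between treatments in peri-infarct tissue and in the interaction under every setting run except neuron marker scaling. That scaling turned the other values most often, and it also moved the median of all genes. In vehicle regions it gave log2 values of 0.313 for Camk2a, 0.0726 for Camk2b, 0.123 for Camk4, 0.201 for Dlg4, and 0.041 for Dlgap1, with 2 members and 27 genes of the wider lists called, where 6414 of 15801 genes were. In HPBCD regions it gave 0.38 for Camk2a, 0.614 for Camk2b, 0.489 for Camk4, 0.562 for Dlg4, 0.113 for Shank1, 0.405 for Shank2, and 0.833 for Shank3. In peri-infarct tissue between treatments it gave 0.133 for Camk2a, 0.272 for Camk2b, 0.309 for Camk4, 0.133 for Dlg4, 0.122 for Shank2, 0.353 for Shank3, and 0.0207 for Dlgap1. There edgeR called 0 members but 11033 of 16224 genes, 28 of them lower, and the median of all genes was 0.65. In contralateral tissue the scaling gave -0.0568 for Camk4 and -0.000869 for Shank3. In the interaction it gave 0.0666 for Camk2a, 0.542 for Camk2b, 0.366 for Camk4, 0.361 for Dlg4, 0.0172 for Shank2, and 0.354 for Shank3. Camk2b was called higher there (adjusted p = 0.0208, edgeR), where 10591 of 16758 genes were called, 30 of them lower. Values near 0 also changed sign: Shank1 in vehicle regions was -0.00365 with DESeq2, -0.00206 with RLE, -0.00239 with no filter, and -0.00937 with the replicate block, Camk2a there was 0.0173 with at least 10 counts in every library and 0.00579 with all groups in 1 fit, and Nrgn in contralateral tissue was -0.023 with voom. Leaving out 1 library gave -0.0984 to 0.102 for Camk2a, -0.139 to 0.0896 for Shank1, and -0.000501 to 0.152 for Shank2 in vehicle regions, and -0.0598 to 0.175 for Camk4 in contralateral tissue.

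Counts of called members moved with the setting, and so did the share of all genes called lower. In peri-infarct tissue between treatments they were 7 with voom (17.2% of all genes lower), 5 with all groups in 1 fit (13.9%), and 5 with the replicate block (10.9%), which there joins mice that share only a number, against 2 as reported (9%), and genes of the wider lists were 43, 31, and 28 against 18. Without 1 library these counts were 1 to 7 and 5 to 48 (1.41% to 16.3% of all genes lower), the highest without HPBCD peri-infarct replicate 2 (16.3%). In the interaction 3 members and 19 wider genes were called with DESeq2 (6.72% of all genes lower), 5 and 38 with voom (12.9%), and 2 members with the replicate block (4.91%). Without 1 library the interaction counts were 1 to 5 and 7 to 30, where 1.29% to 8.26% of all genes were lower. In vehicle regions, voom called 27 wider genes, 9 of them higher (14.9% of all genes lower). Without 1 library, 1 to 2 members and 11 to 24 wider genes were called (5.26% to 11.2% of all genes lower). The 24 (9 higher) were called without contralateral replicate 4 (11.2%). In HPBCD regions the replicate block, paired by animal, called 8 members against 7 (24.8% of all genes lower), voom 9 (27.5%), and leaving out 1 library 6 (without contralateral replicate 2, 3, or 4, 22.1% to 22.5%) to 9 (without peri-infarct replicate 2, 26.9%). Apart from the 2 calls given in the report, the block changed no call of a member between regions or in the interaction. The cause of these shifts was not tested.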
